A study of Lens culinaris with 18 samples.

Results

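LcLTP3b (Lcu.2RBY.4g013600) is the lentil gene that encodes the food allergen Len c3. It was examined here together with the genes around it on chromosome 4. The neighbourhood was defined as every gene identifier between Lcu.2RBY.4g012600 and Lcu.2RBY.4g014600, that is 100 identifiers on each side of LcLTP3b. This gave 201 of the 58243 identifiers in the count tables, set beside 8045 other identifiers of chromosome 4. Identifiers advance by 10, and their order was taken as the order along the chromosome, so that distances below are identifier steps and not bases. In the text, identifiers are shortened to the portion that follows the assembly prefix (LcLTP3b is 4g013600).

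RNA was sequenced from dissected embryos and from seed coats with attached endosperm of mature green lentil (Lens culinaris) seeds. The tested line was M11, the natural accession CN 45073, a single line that carries the mutated allele lcltp3b with an early stop codon. It was set against the cultivars CDC Redmoon and CDC Gold, named Redmoon and Gold below. Each line had 3 libraries per tissue, which made 18 libraries from plants raised in a growth chamber. Nothing states that replicate libraries were made from different plants, so that p-values measure only the spread between these libraries. M11 is a natural accession and not derived from either cultivar, so that the lcltp3b allele and the rest of its genome cannot be told apart.

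Non-specific lipid transfer proteins are small, cysteine-rich, secreted plant proteins. Disulphide bonds hold them around a hydrophobic pocket that binds lipids, and they are known for roles in the deposition of surface lipids such as cutin, in defence and in seed development. Members of this family in legumes, fruits and nuts are heat- and protease-resistant allergens, and Len c3 is the one of lentil. Genes of such families often lie in tandem copies, although no function of the neighbouring identifiers was taken from any source here, so they are described by identifier alone.

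Library totals ranged from 3270275 counts (a Gold embryo library) to 24309401 counts (a Gold seed coat library). The seed storage vicilins, used to check the tissue labels, took 13.8 to 36% of counts in embryo libraries and 0.17 to 0.783% in seed coat libraries. The cultivar labels were less secure. Over the whole genome, 116 genes were expressed by a single cultivar in each tissue, and for every one of the 116 that cultivar changed with the tissue. None of them was a member of the neighbourhood. The libraries are named by their labels. Within a tissue, calls against both cultivars do not depend on which is which, but values that join the tissues of a cultivar do. Because the libraries are bulk tissue, fewer cells of a type and less RNA per cell cannot be told apart.

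Much of the neighbourhood was silent in these seeds. Of the 201 members, 111 had 0 counts in all 18 libraries (55.2%, against 40.4% of chromosome 4 identifiers and 42.8% of all identifiers), 60 of them before LcLTP3b and 51 after it. Another 36 had counts too few to be tested in either tissue, with at most 101 over all libraries. The filter on low counts left 50 members in seed coat and 47 in embryo, with 43 in both. In seed coat, most counts of the members came from a single gene, 4g013650. It held 83.11% of them in M11 seed coat, 66.91% in Redmoon seed coat and 87.77% in Gold seed coat. LcLTP3b held 0.6164% in M11 seed coat, 0.0206% in Redmoon seed coat and 0.00981% in Gold seed coat. In embryo, 4g013650 held 4.549% in M11, 0.9651% in Redmoon and 0.7% in Gold. LcLTP3b held 6.115%, 2.924% and 4.568% there.

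LcLTP3b transcripts were far more abundant in M11 seed coat than in the seed coat of either cultivar, although M11 carries the mutated allele. Levels are given as CPM, the counts of a gene relative to the TMM-scaled size of its library (normalised CPM). They are not corrected for transcript length, so they are compared between groups for a gene and not between genes. In seed coat, LcLTP3b reached 30, 29.5 and 32.1 normalised CPM in M11, against 1.06, 1.37 and 1.04 in Redmoon and 1.2, 1.05 and 1.12 in Gold. The lowest M11 library stood above all 6 cultivar libraries by a wide margin. The log2 fold change was 4.74 over Redmoon (SE 0.16, edgeR adjusted p = 2.62e-35) and 4.80 over Gold (SE 0.13, adjusted p = 2.42e-40), and the cultivars did not differ beyond their spread (log2 fold change 0.06 for Redmoon over Gold, SE 0.26, adjusted p = 0.855). Among tested genes ordered by the smaller of their log2 fold changes over the cultivars, LcLTP3b was at place 1 of 50 members, 18 of 2963 genes of chromosome 4 and 167 of 19386 genes.

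In embryo the same gene was expressed in all 3 lines. LcLTP3b had 55.1, 52.7 and 58.2 normalised CPM in M11 embryo, 28.2, 35.5 and 30.2 in Redmoon embryo and 51.1, 70.8 and 55.3 in Gold embryo. M11 was above all Redmoon libraries and within the range of the Gold libraries. The log2 fold change was 0.81 over Redmoon (SE 0.09, adjusted p = 3.11e-08 in edgeR) and -0.17 relative to Gold (SE 0.09, adjusted p = 0.109), which placed the gene at 22 of 47 members. The value against Gold turned with a single library. It was 0.043 (adjusted p = 0.705) without Gold embryo replicate 2 and -0.33 (adjusted p = 0.00258) without Gold embryo replicate 1.

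The tissue pattern of LcLTP3b differed between M11 and the cultivars. Embryo exceeded seed coat by a log2 fold change of 0.86 in M11 (SE 0.08), 4.78 in Redmoon (SE 0.16) and 5.74 in Gold (SE 0.13). The embryo difference minus the seed coat difference was -3.92 with Redmoon (SE 0.21, adjusted p = 4.09e-24 in edgeR) and -4.88 with Gold (SE 0.16, adjusted p = 1.13e-33). With the cultivar labels exchanged in embryo, these differences were -4.87 and -3.93. Vicilins made up 0.201 to 0.226% of counts in M11 seed coat, 0.715 to 0.783% in Redmoon seed coat and 0.17 to 0.194% in Gold seed coat. In M11 embryo they made up 13.8 to 14.2%. The part of embryo RNA in the seed coat values, or of seed coat RNA in the embryo values, was not tested. How reads of the mutated allele, of members whose sequence differs in M11 or of related genes were mapped and assigned is not stated, and its part in these values, and in those of members nearly absent from M11 below, was not tested.

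**Figure D1:**
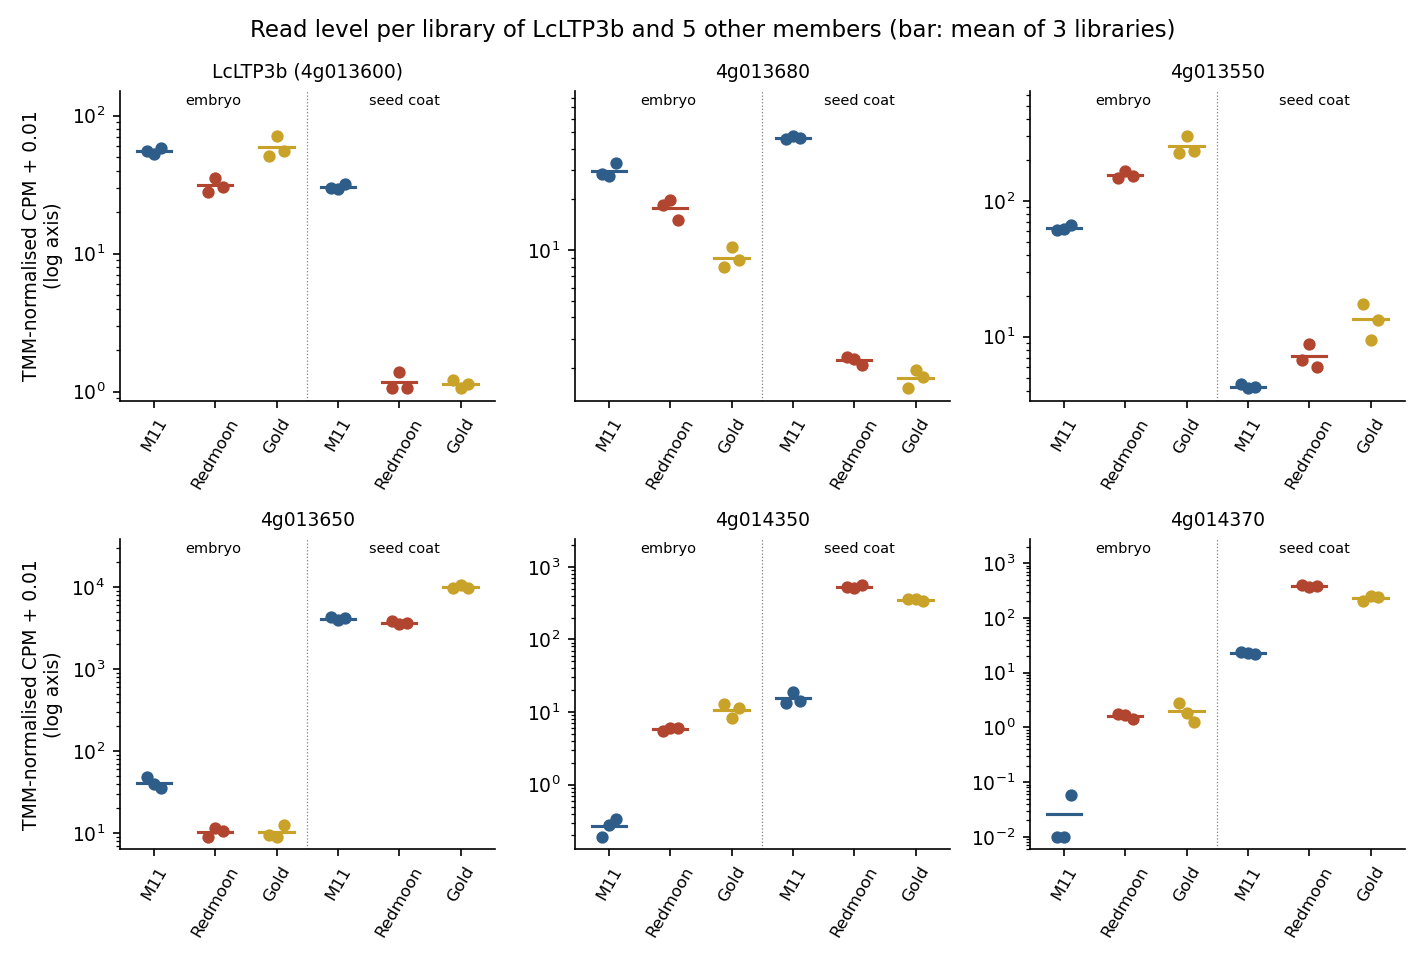
Normalised CPM (0.01 added, log axis) in each library of LcLTP3b and 5 other members, with embryo libraries on the left and seed coat libraries on the right of every panel, points for single libraries and bars for the mean of 3. LcLTP3b and 4g013680 sit at 29.5 CPM or above in M11 seed coat and below 2.4 CPM in the cultivar seed coats, whereas 4g014350 and 4g014370 are lower in M11 in both tissues.

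One near neighbour showed a rise of the same size. The gene 4g013680 lies 8 steps after LcLTP3b and is the second tested member on that side. In seed coat it had 45.8, 47.2 and 45.9 normalised CPM in M11, against 2.33, 2.26 and 2.09 in Redmoon and 1.51, 1.96 and 1.76 in Gold. Again no library of either cultivar came near those of M11. The log2 fold change was 4.38 over Redmoon (SE 0.12, edgeR adjusted p = 2.35e-39) and 4.77 over Gold (SE 0.10, adjusted p = 4.43e-45).

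In embryo, 4g013680 had 28.4, 27.5 and 32.9 normalised CPM in M11, 18.5, 19.7 and 15.1 in Redmoon and 7.9, 10.4 and 8.71 in Gold. All M11 libraries were above all cultivar libraries, with log2 fold changes of 0.71 (edgeR adjusted p = 3.87e-07) and 1.65 (adjusted p = 1.41e-11). Unlike LcLTP3b, this gene was lower in embryo than in seed coat of M11 (log2 fold change -0.65), while embryo was higher by 3.01 in Redmoon and 2.40 in Gold. The embryo difference minus the seed coat difference was -3.66 with Redmoon (adjusted p = 1.71e-26 in edgeR) and -3.04 with Gold (adjusted p = 3.72e-21). These differences, and those between the tissues of each cultivar, take the cultivar labels as given. They are not given with the labels exchanged. Among 52 members compared, its log2 CPM over the 18 libraries had the highest Pearson correlation with that of LcLTP3b (r = 0.856), although not the highest Spearman correlation (rho = 0.558). It was followed by 4g014420 (r = 0.828, rho = 0.779) and 4g014410 (r = 0.803, rho = 0.841). By rank, 4g013710 was the most like LcLTP3b (rho = 0.897, r = 0.728). These values describe 18 libraries that fall into 6 groups and share tissue, line and depth.

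The other 5 of the 6 nearest tested members did not rise above both cultivars in seed coat. On the side of lower identifiers, 4g013550, 5 steps away, was lower in M11. It had 4.45, 4.15 and 4.26 normalised CPM in M11 seed coat, against 6.78, 8.83 and 5.94 in Redmoon and 17.3, 9.51 and 13.3 in Gold, with no overlap between M11 and the cultivars (log2 fold changes -0.72 and -1.61, edgeR adjusted p = 0.0022 and 1.89e-12). The same held in embryo, where 4g013550 had 61.6, 62.3 and 66.9 normalised CPM in M11, 148, 166 and 152 in Redmoon and 227, 299 and 235 in Gold (log2 fold changes -1.30 and -2.06). The next gene, 4g013530 at 7 steps, was nearly level. Its seed coat values of 24.6, 25.2 and 23 normalised CPM in M11 lay just under 29.4, 30 and 28.5 in Redmoon and 28.2, 26.6 and 27.9 in Gold (log2 fold changes -0.27, edgeR adjusted p = 0.00145, and -0.14, adjusted p = 0.0708). Its calls varied with the setting, with an edgeR adjusted p of 0.0259 against Gold in a fit of all 18 libraries and 0.214 against Redmoon with library totals alone. In embryo 4g013530 was slightly lower in M11 (-0.23, edgeR adjusted p = 0.00742, or 0.0848 in DESeq2, against Redmoon, and -0.37, edgeR adjusted p = 0.000269, against Gold). The gene 4g013420, at 18 steps, did not pass the test in seed coat (0.72 over Redmoon, adjusted p = 0.121, and 0.05 over Gold, adjusted p = 0.895, edgeR), and its M11 libraries (0.798, 1.28 and 1.42 normalised CPM) overlapped those of both cultivars.

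On the side of higher identifiers, 4g013650 stood between LcLTP3b and 4g013680, 5 steps from LcLTP3b. It was the member with the most counts, 1204091 over the 18 libraries, nearly all from seed coat. It had 4259, 3952 and 4155 normalised CPM in M11 seed coat, 3850, 3575 and 3592 in Redmoon seed coat and 9862, 10625 and 9785 in Gold seed coat. M11 was thus slightly above Redmoon (0.16 on the log2 scale, adjusted p = 0.000292 in edgeR) and well below Gold (-1.25, adjusted p = 1.82e-36). In embryo 4g013650 was higher in M11 than in both cultivars, with 48, 39.3 and 35.8 normalised CPM in M11, 9.02, 11.5 and 10.6 in Redmoon and 9.36, 8.96 and 12.4 in Gold (log2 fold changes 1.98, adjusted p = 4.74e-14, and 2.08, adjusted p = 3.46e-13, edgeR). These embryo levels are small beside those of seed coat, and the part of seed coat RNA in them was not tested. The tested gene after 4g013680, 4g013780 at 18 steps, had 7, 6 and 0 counts in M11 seed coat. Its libraries overlapped those of both cultivars (9, 7 and 9 counts in Redmoon, 14, 28 and 19 in Gold), and it did not pass the test (log2 fold changes -0.44, adjusted p = 0.502, and -0.45, adjusted p = 0.432, edgeR).

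A scarcer gene, 4g013710 at 11 steps, had too few counts to be tested in seed coat and was named after its values were seen. It had 3, 4 and 3 counts in M11 seed coat, 2, 0 and 1 in Redmoon and 6, 0 and 1 in Gold. In normalised CPM all M11 libraries (0.342, 0.426 and 0.304) were above all cultivar libraries, of which the highest was at 0.189, and the level was 4.72 times as high in M11 as in Redmoon (exact 95% interval 1.22 to 26.7).

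Counted over the neighbourhood, rises in M11 seed coat were fewer than among all genes. M11 was higher than Redmoon for 15 of 50 members (37.2% of all tested genes) and lower for 21 (34.2% of all). It was higher than Gold for 9 (35.9% of all) and lower for 22 (36.9% of all). The median log2 fold change of the members was -0.03 against Redmoon and -0.16 against Gold, beside 0.04 and -0.01 over all tested genes. Against both cultivars, which share the M11 libraries, 7 of 50 members were higher, or 14%, beside 26.5% of all tested genes. With LcLTP3b set aside, this was 6 of 49 members. Lower than both were 15 of 50 members, or 30%, beside 23.7% of all.

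The members that rose included some of the steepest rises. A log2 fold change of at least 1 over both cultivars was found for 5 members (10%, beside 9.67% of all tested genes), and a change of at least 4, that is 16-fold, for 3 members (6%, beside 1.24% of all). These 3 were LcLTP3b, 4g013680 and 4g012700. The rise of LcLTP3b was known when the window was centred on it, so that counting it raises these shares by choice. With LcLTP3b set aside, 4 of 49 members were at least 2-fold higher than both cultivars, and only 4g013680 and 4g012700 were at least 16-fold higher. Genome-wide, 241 genes rose by at least 16-fold over both cultivars in seed coat, 31 of them on chromosome 4, and 28 of the 241 had another such gene within 8 identifier steps. The step of 8 was chosen after the values were seen.

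The gene 4g012700 lies 90 steps before LcLTP3b and was seen only in seed coat. It had 38, 22 and 36 counts in M11, 0 in every Redmoon library and 3, 4 and 8 in Gold. M11 was at least 45.3-fold higher than Redmoon, taking 3 counts over the group as the limit, and the log2 fold change over Gold was 4.40 (SE 0.37, edgeR adjusted p = 2.71e-16). No embryo library of any line held a count of it.

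The 4 remaining rises lay 28 to 82 steps after LcLTP3b. The gene 4g013890, at 29 steps and named after its values were seen, had 53, 52.2 and 49.7 normalised CPM in M11 seed coat, 16.1, 13.3 and 17.2 in Redmoon and 7.69, 6.74 and 7.74 in Gold. These groups did not overlap, and the log2 fold changes were 1.71 (edgeR adjusted p = 7.66e-28) and 2.84 (adjusted p = 7.49e-40). In embryo its rise was smaller, 0.42 (adjusted p = 0.000167) and 0.60 (adjusted p = 1.75e-05).

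The gene 4g014420, at 82 steps, was scarce. It had 7, 11 and 11 counts in M11 seed coat, 3, 3 and 1 in Redmoon and 1, 6 and 6 in Gold, with log2 fold changes of 2.50 (SE 0.59, edgeR adjusted p = 0.000158) and 2.87 (SE 0.51, adjusted p = 1.27e-06). In normalised CPM its M11 libraries were above those of both cultivars. Its neighbour 4g014410 rose by 0.55 (adjusted p = 0.0156) and 0.49 (adjusted p = 0.0144) in seed coat and fell by 0.69 and 1.10 on the log2 scale in embryo. The seed coat call of 4g014410 was lost in DESeq2 (adjusted p = 0.0718 and 0.0647) and without M11 seed coat replicate 3 (adjusted p = 0.117 and 0.14). It was also lost against Redmoon without Redmoon seed coat replicate 3 (adjusted p = 0.0648) and against Gold without Gold seed coat replicate 2 (adjusted p = 0.059). Last, 4g013880, next to 4g013890 and also named after its values were seen, rose by 0.54 (adjusted p = 0.0414) and 0.58 (adjusted p = 0.0129), although its M11 and cultivar libraries overlapped.

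Nearness to LcLTP3b went with no broad rise. Within 25 steps there were 51 identifiers, of which 11 were tested in seed coat, and only LcLTP3b and 4g013680 were higher in M11 than in both cultivars while 3 were lower. Within 50 steps, 23 of 101 identifiers were tested, 4 were higher and 6 were lower. Of the 22 tested members before LcLTP3b, 1 was higher and 7 were lower, and of the 27 after it, 5 were higher and 8 were lower. Over all tested genes, 26.5% were higher and 23.7% lower than both cultivars.

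**Figure D2:**
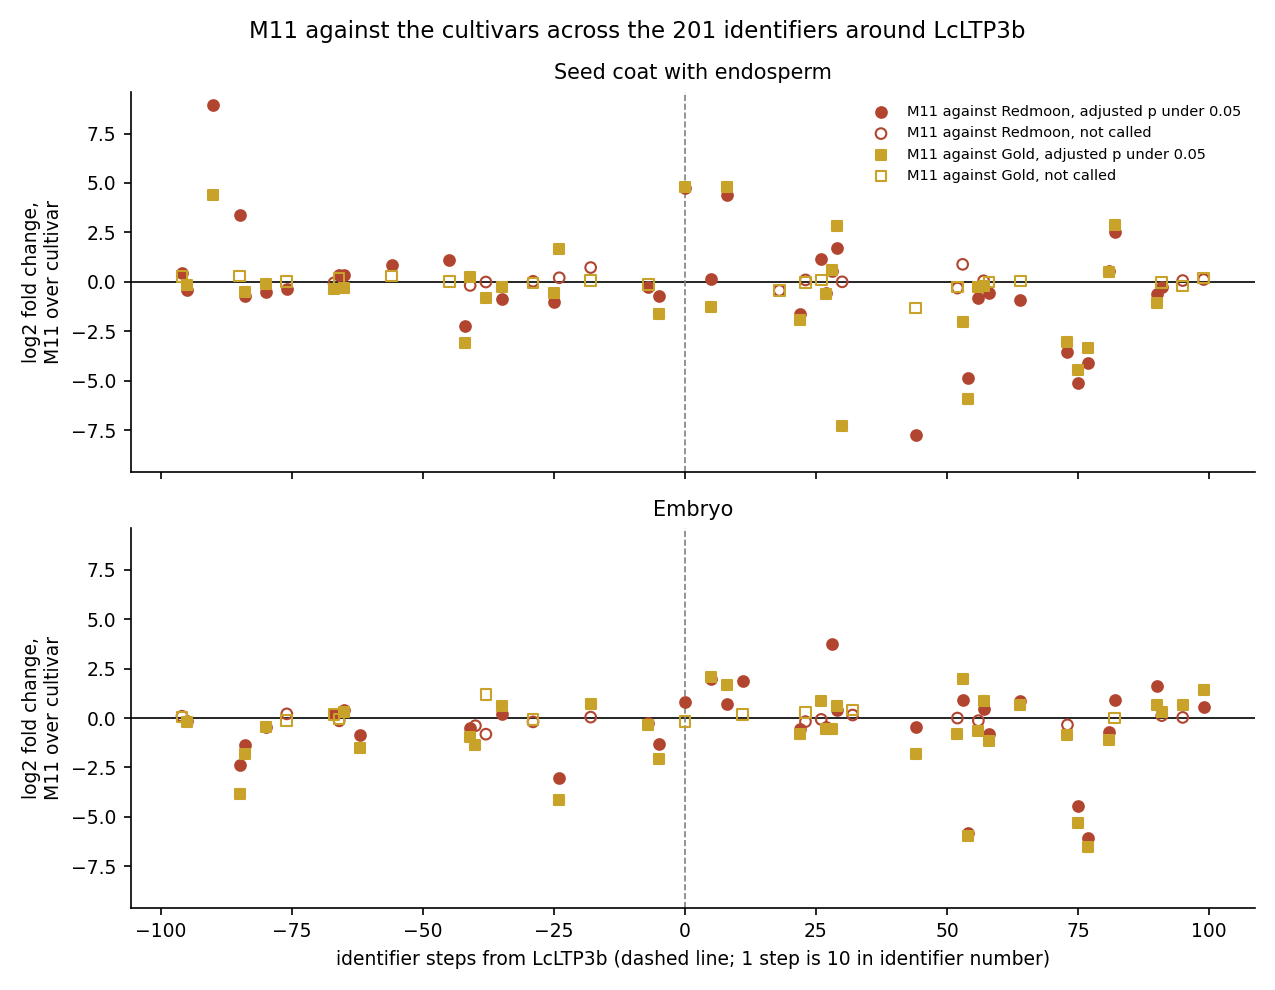
Log2 fold change of M11 over each cultivar (y axis) for every tested member by its distance from LcLTP3b in identifier steps (x axis), seed coat above and embryo below, filled symbols for edgeR adjusted p under 0.05. In seed coat LcLTP3b and 4g013680 lie between 4.38 and 4.80, above every other tested member within 25 steps, and points of 4g012700 (90 steps before), 4g013900 (30 after) and 4g014040 (44 after) include comparisons with a group at 0 counts, whose fitted values are not bounds.

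Of the 4 steepest falls in M11 seed coat against both cultivars, 3 lay in a short run of identifiers, 73, 75 and 77 steps after LcLTP3b. In seed coat, 4g014350 had 13.2, 19 and 14.1 normalised CPM in M11, against 521, 505 and 564 in Redmoon and 356, 360 and 339 in Gold. Its M11 libraries were far below all others (log2 fold changes -5.11, SE 0.07, edgeR adjusted p = 3.26e-57, and -4.46, SE 0.07, adjusted p = 3.25e-54). In embryo, where it was low in all lines, it had 4, 6 and 7 counts in M11, 76, 82 and 68 in Redmoon and 123, 90 and 18 in Gold, with log2 fold changes of -4.43 (adjusted p = 7.9e-13) and -5.32 (adjusted p = 5.13e-15).

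Beside it, 4g014370 had 23.3, 22.4 and 21.9 normalised CPM in M11 seed coat, against 399, 364 and 374 in Redmoon and 207, 253 and 239 in Gold (log2 fold changes -4.08 and -3.33, edgeR adjusted p = 5.94e-52 and 2.18e-47). In embryo the M11 group held 1 count of it, against 64 counts in Redmoon and 49 in Gold. The level in Redmoon was 106.7 times that of M11 (exact 95% interval 18.5 to 4280), and in Gold it was 143.9 times that of M11 (24.6 to 5796). These intervals cover counting error only.

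The gene 4g014330, in the same run, fell in seed coat. It had 2.39, 1.6 and 1.83 normalised CPM in M11, 22.8, 18.8 and 25.9 in Redmoon and 16.2, 16.4 and 16.2 in Gold (log2 fold changes -3.57 and -3.03, edgeR adjusted p = 3.43e-29 and 1.23e-25). In embryo it differed less (-0.35 against Redmoon, adjusted p = 0.0567, or 0.00794 without Redmoon embryo replicate 2, and -0.87 against Gold, adjusted p = 5.78e-05). With the cultivar labels taken as given, the embryo difference minus the seed coat difference was 3.22 (adjusted p = 2.01e-17) and 2.24 (adjusted p = 2.42e-11).

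A further gene, 4g014140, 54 steps after LcLTP3b, was nearly absent from M11. In embryo it had 5, 0 and 3 counts in M11, 103, 111 and 78 in Redmoon and 85, 70 and 21 in Gold (log2 fold changes -5.83 and -5.98, edgeR adjusted p = 1.9e-13 and 2.44e-13). In seed coat the M11 group held 1 count, against 49 in Redmoon and 248 in Gold. The level was 34.6 times as high in Redmoon (exact 95% interval 5.93 to 1394) and 74.5 times as high in Gold (13.2 to 2953) as in M11.

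With these genes, falls of at least 8-fold below both cultivars in seed coat were found for 4 of 50 members (8%, beside 2.71% of all tested genes), and falls of at least 2-fold for 6 (12%, beside 8.47%).

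Across the tissues, 22 of 56 members in the fit of all libraries were higher in embryo of M11 and 23 were lower (39.9 and 39.6% of all tested genes). In Redmoon these were 24 and 22 (43 and 40.9% of all), and in Gold 24 and 24 (39.6 and 40.6% of all). The difference of M11 from a cultivar depended on the tissue for 29 of the 56 members against Redmoon (47.2% of all) and 32 against Gold (55.3% of all). Against both cultivars, the embryo difference was the higher one for 11 members (10.9% of all) and the lower one for 11 (13.7% of all). Counts that join embryo and seed coat of a cultivar rest on its labels in both tissues. They are not given with the labels exchanged.

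In embryo, calls against Redmoon were near the shares over all genes, while falls below both cultivars outnumbered rises above both. M11 was higher than Redmoon for 15 of 47 members (31.5% of all tested genes) and lower for 17 (32.1% of all), or for 15 and 15 with the size factors of DESeq2. It was higher than Gold for 14 (36.9% of all) and lower for 22 (37.1% of all). Against both cultivars, 10 members were higher (21.3%, beside 25% of all) and 17 were lower (36.2%, beside 24.5% of all). Only 4g013650 was at least 2-fold higher than both (2.13% of members, beside 7.6% of all), while 7 were at least 2-fold lower (14.9%, beside 8.74%) and 4 at least 8-fold lower (8.51%, beside 2.46%). The embryo directions rest on the TMM scaling. Scaling by library totals alone moved the median log2 fold change of all tested genes to 0.64 against Redmoon and 1.26 against Gold, and gave 30 members higher and 8 lower than Redmoon and 35 higher and 8 lower than Gold. Under that scaling 78.9% of the members' calls against Redmoon and 81.4% of those against Gold were higher, beside 85.8% and 87.8% of the calls over all genes.

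The fourth of these steep embryo falls was 4g013360, 24 steps before LcLTP3b. It had 1.27, 1.17 and 0.614 normalised CPM in M11 embryo, 7.74, 7.69 and 9.85 in Redmoon embryo and 17.7, 19.5 and 13.1 in Gold embryo. The groups did not overlap (log2 fold changes -3.03 and -4.16, edgeR adjusted p = 1.97e-12 and 5.5e-16). In seed coat the same gene was not called against Redmoon (0.21, adjusted p = 0.248) and was higher than in Gold (1.65, adjusted p = 1.6e-13), with 7.07, 6.92 and 7 normalised CPM in M11, 6.57, 5.89 and 5.68 in Redmoon and 2.02, 2.41 and 2.46 in Gold.

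Among the embryo rises, 4g014500 at 90 steps had 25.7, 24.8 and 26.3 normalised CPM in M11, 7.53, 8.78 and 8.18 in Redmoon and 15.3, 16.9 and 13.1 in Gold (log2 fold changes 1.64, edgeR adjusted p = 6.6e-14, and 0.65, adjusted p = 1.16e-06). It was lower than both cultivars in seed coat (-0.61, adjusted p = 0.00596, and -1.07, adjusted p = 1.62e-07). The gene 4g014130 at 53 steps had 5.12, 4.24 and 5.53 normalised CPM in M11 embryo, 2.77, 3.48 and 1.41 in Redmoon embryo and 0.728, 1.45 and 2.49 in Gold embryo (0.91, adjusted p = 0.00095, and 1.98, adjusted p = 5.33e-06). In seed coat it was not called against Redmoon (0.88, adjusted p = 0.0752) and was lower than in Gold (-2.03, adjusted p = 1.5e-09).

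Of the 43 members tested in both tissues, 9 fell below both cultivars in both tissues of M11 (20.9%, beside 11.2% of all genes tested in both). These were 4g012650, 4g012760, 4g012800, 4g013550, 4g013820, 4g013870, 4g014140, 4g014350 and 4g014370. Higher in both tissues were 4g013680 and 4g013890 (2 members, beside 12.7% of all). One member, 4g014410, was higher in seed coat and lower in embryo (3.25% of all), and 4g013250 and 4g014500 were lower in seed coat and higher in embryo (2.08% of all). Called in none of the 4 comparisons were 2 members, 4g013310 and 4g013830, a count without its share over all genes. In each single comparison, 63.6 to 74% of all tested genes were called. The gene 4g013310, for example, had 12.3, 14.4 and 16.2 normalised CPM in M11 seed coat, 15.2, 13 and 13.8 in Redmoon and 15.8, 15.3 and 15.5 in Gold.

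**Figure D3:**
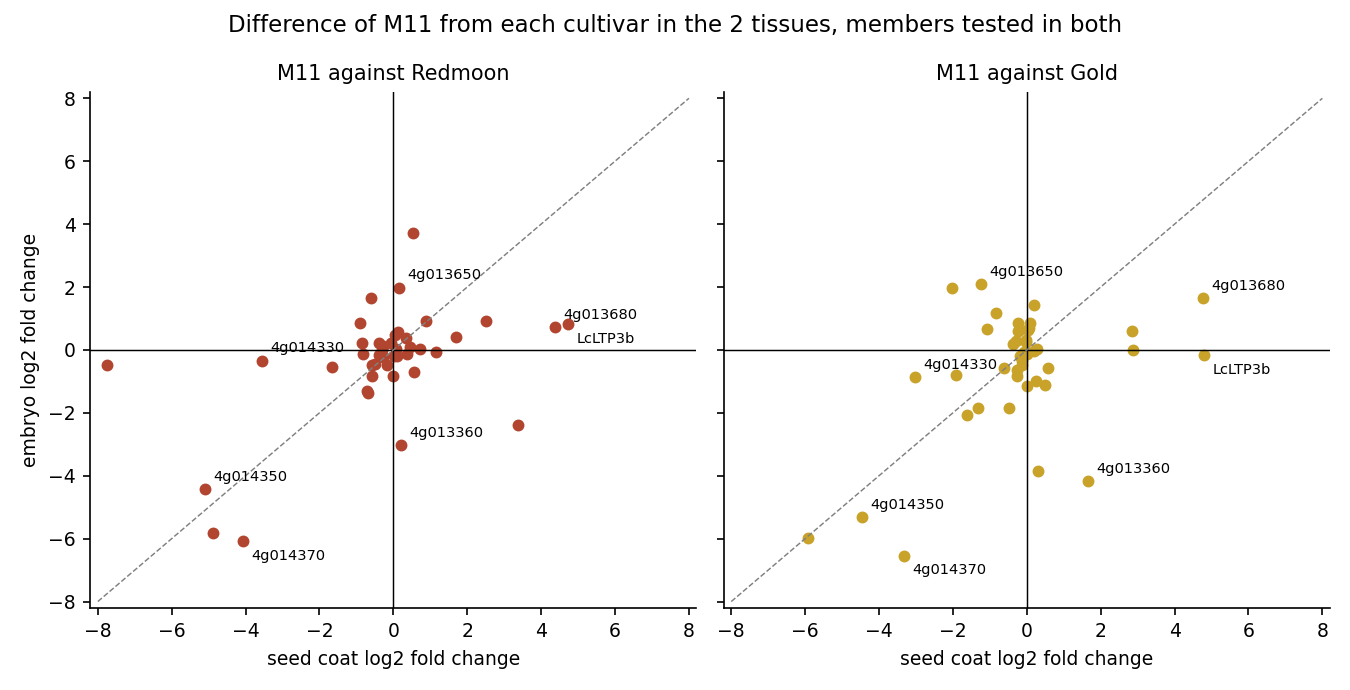
Log2 fold change of M11 over Redmoon (left) and over Gold (right) in seed coat (x axis) and in embryo (y axis), 1 point for each of the 43 members tested in both tissues, with the dashed line at equal change. LcLTP3b and 4g013680 lie far to the right at embryo changes between -0.17 and 1.65, while 4g014350 and 4g014370 are low in both, with 4g014370 below the dashed line at an embryo value that rests on 1 count in M11.

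Differences between the cultivars were about as frequent in the neighbourhood as over all genes. Between Redmoon and Gold, 33 of 50 members were called in seed coat (66%, beside 66.4% of all tested genes) and 27 of 47 in embryo (57.4%, beside 55.2% of all). Some of these differences ran in opposite directions in the tissues, as they did over the whole genome. Of 43 members, 12 were called in both tissues in opposite directions (28% of all) and 4 in the same direction (11.9% of all). The gene 4g013900, named after its values were seen, had 0 counts in all Redmoon seed coat libraries and 36, 38 and 30 in Gold seed coat, but 9, 17 and 9 in Redmoon embryo and 0 in all Gold embryo libraries. M11 held 0 counts of it in seed coat and 1 count in embryo. Its cultivar values follow the pattern given above for genes expressed by a single cultivar in each tissue, at lower levels.

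Set beside the rest of chromosome 4, the neighbourhood had the smallest share of rises in M11 seed coat. Windows of the same identifier span were laid outward from it, and those with at least 20 tested genes were kept, 41 in seed coat and 40 in embryo, with shorter windows of 53 (seed coat alone) and 153 identifiers at the ends of the chromosome. Of tested genes, 14% were higher than both cultivars in seed coat in the neighbourhood, against 17.8 to 57.1% in the others (median 28.7%). The share lower than both, 30%, was exceeded in 5 of 41 windows (median 24.5%). The median over genes of the log2 fold change averaged over the cultivars was -0.21, and 40 windows had a higher median.

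The share at least 2-fold higher in seed coat, 10%, was exceeded by 18 windows and was above 23 (median 9.43%). At least 8-fold higher in seed coat were 3 members, or 6%, a share exceeded by 1 of 41 windows (median 1.74%), although 3 windows held more such genes and 6 held as many. LcLTP3b, whose rise was known when the window was centred on it, is counted in the 2-fold and the 8-fold share. Counting it raises both shares and their places by choice, and the places without it are not given. At least 8-fold lower were 4 members, or 8%, exceeded by 4 windows (median 3.41%). In embryo, the share at least 2-fold higher, 2.13%, was exceeded by 37 of 40 windows, and the share lower than both, 36.2%, by 4. The share at least 8-fold lower in embryo, 8.51%, was exceeded by 1 of 40 windows (median 2.67%). The neighbourhood was also among the sparsest windows, and its 111 identifiers without a count were exceeded in 1 of the 41. With windows shifted to start midway, those that overlap it held 17.8% (45 tested genes) and 21% (62 tested genes) higher than both in seed coat. The lowest place is thus that of the exact window, and it rests on 7 genes of 50. At least 8-fold higher in seed coat were 4.44% in the shifted window that holds LcLTP3b. In the other, which starts just after it, they were 3.23%.

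**Figure D4:**
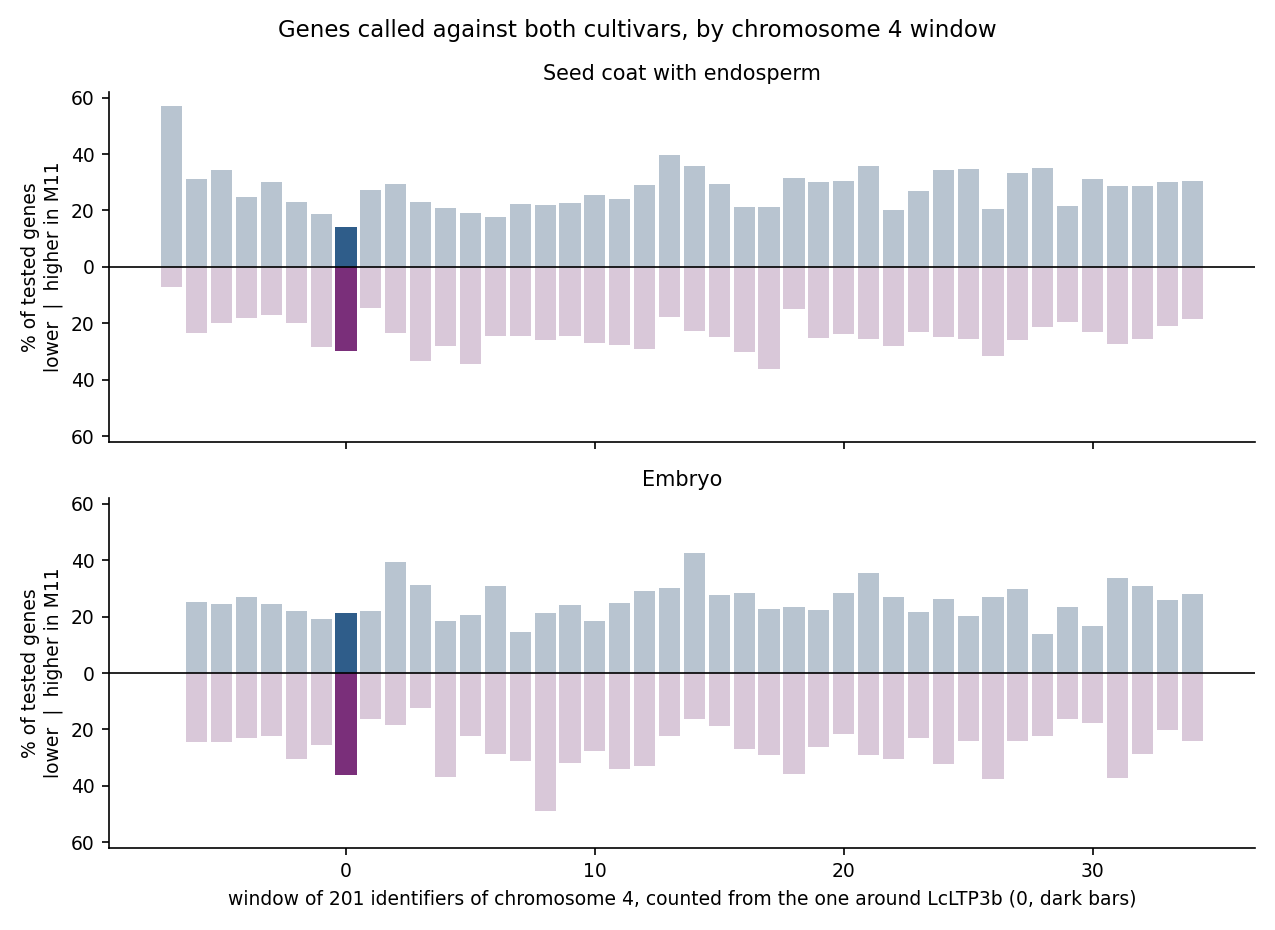
Percent of tested genes called higher (up) and lower (down) in M11 than in both cultivars (y axis) in each chromosome 4 window (x axis, 0 is the one around LcLTP3b, dark bars), seed coat above and embryo below. In seed coat the dark bar reaches 14% upward, less than every other window, and 30% downward.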

How the data were processed

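Total RNA of 18 libraries (3 per line and tissue) was sequenced as paired-end reads from poly(A) libraries. The authors deposited raw read counts per gene, unnormalised, for 58243 identifiers. The submitters' processing notes name STAR 2.7.10. Which tool counted the reads, on which build, and what was done with reads matching more than 1 gene is "not given in the sources used here". Distances are identifier steps, since a genome was not used. Columns holding the authors' own fold changes were not used, and 0 columns were left unassigned.

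The model was edgeR 4.0.16 (limma 3.58.1, R 4.3.3), with filterByExpr, TMM scaling and the quasi-likelihood test. Each tissue had a fit of its 9 libraries in 3 groups, and tissue dependence was tested as an interaction in a fit of all 18. P-values were adjusted by Benjamini and Hochberg over all genes tested, and a gene was called under 0.05. Limits for groups at 0 use 3 counts over the group and cover counting error only. Setting such groups to that limit left the members' median log2 fold changes as given. This outcome was fixed in advance. In seed coat 2 members were moved against Redmoon and 1 against Gold, all far from the median, and in embryo 0. Log2 CPM was correlated after adding 0.5 CPM.

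Named genes were LcLTP3b, the 3 nearest tested members on each side, the 4 largest rises and falls against both cultivars in each tissue (by the smaller change), any member at 2 CPM or more in all M11 libraries and 0.1 or less in all cultivar libraries or the reverse, the 3 with the most counts and the 3 most like LcLTP3b. Others are said to be named after their values were seen. The members, the rule and the vicilin list were chosen with earlier results of these data known. Alternatives were DESeq2 1.42.0, its size factors in edgeR, library totals, other filters, other sets of libraries in the fit, a replicate block, a minimum log2 fold change of 1, narrower neighbourhoods, shifted windows and each replicate left out. Exchanged cultivar labels in embryo were added after the data were seen.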

Additional observations from a re-analysis of the deposited data

Results flagged for a closer look

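For 9 of the named members, the difference of M11 from a cultivar was not the same in embryo and in seed coat, by the edgeR interaction test against both cultivars. Values are the embryo log2 fold change minus the seed coat one, with the cultivar labels taken as given in both tissues. Over all tested genes, 10.9% were higher and 13.7% lower in embryo by this test against both cultivars, beside 11 and 11 of 56 members. The difference was lower in embryo against Redmoon and Gold for LcLTP3b (-3.92 and -4.88), 4g013680 (-3.66 and -3.04), 4g013360 (-3.23 and -5.73), 4g014410 (-1.24 and -1.50) and 4g014180 (-0.24 and -1.06). It was also lower for 4g014370 (-2.07, adjusted p = 0.0423, and -3.21, adjusted p = 0.000643), whose M11 embryo group held 1 count, so that its fitted size is imprecise. It was higher in embryo for 4g013650 (1.82 and 3.41), 4g014330 (3.22 and 2.24) and 4g014500 (2.25 and 1.81). The member 4g014180, with 38056 counts over all libraries among the 3 most counted, had 119 ± 4.3 normalised CPM in M11 embryo, 210 ± 7.48 in Redmoon embryo and 255 ± 9.24 in Gold embryo (SD, n = 3). In seed coat it had 88.4 ± 1.69 in M11, 132 ± 2.81 in Redmoon and 91.2 ± 0.944 in Gold (SD, n = 3).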

How the results depend on the processing

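LcLTP3b was higher in M11 seed coat under every alternative run, with log2 fold changes of 4.65 to 4.90 over Redmoon and 4.75 to 4.88 over Gold, and its tissue dependence stayed past the threshold (-4.87 to -3.45 and -5.04 to -3.79). Leaving out each replicate in turn gave 4.65 to 4.85 and 4.75 to 4.84. In embryo the difference from Gold became 1.09 with library totals alone, and ranged from -0.33 to 0.043 as replicates were left out. With library totals alone, other values changed sign in embryo against Redmoon (4g013530 at 0.41 and 4g014330 at 0.30) and against Gold (4g013530 at 0.90, 4g014180 at 0.11, 4g014330 at 0.39 and 4g014410 at 0.16), as did 4g014180 in seed coat against Gold (0.080). The sign of values that were not called also turned as replicates were left out, for 4g013420 (-0.12 to 0.28), 4g014180 (-0.014 to 0.011) and 4g013780 (-1.02 to 0.17) in seed coat against Gold, 4g013780 in seed coat against Redmoon (-1.01 to 0.18) and 4g014420 in embryo against Gold (-0.50 to 1.24). For 4g013780 the sign turned without M11 seed coat replicate 3, which had 0 counts of it. The cause was not tested. Among values of single named genes other than LcLTP3b, 1015 kept their sign and call and 19 changed sign. A further 10 came to pass the threshold and 15 ceased to pass it, in the same direction.

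Counts of members are given as higher and lower. They show how the calls moved with each setting. Shares over all genes under the same setting are not given beside them, so they do not tell whether the members differ from other genes. With library totals alone, embryo counts were 30 and 8 against Redmoon, 35 and 8 against Gold and 30 and 7 against both. With at least 10 counts in every library, which tests fewer genes, the lower embryo counts were 11, 13 and 11, and 17 members differed between the cultivars in embryo. With a log2 fold change of at least 1, the counts were 8 and 8 against Redmoon and 11 lower against Gold in seed coat, 4 and 7 against Redmoon and 4 and 12 against Gold in embryo, 6 lower than both in seed coat, 1 higher and 7 lower than both in embryo, and 11 (seed coat) and 7 (embryo) between the cultivars. Within 250 in identifier number, which holds fewer genes, they were 3 and 4 against Redmoon, 3 and 4 against Gold and 2 and 3 against both in seed coat, 4 and 4, 3 and 4 and 2 and 4 in embryo, and 4 and 7 between the cultivars. Within 500 they were 7 and 8 against Redmoon, 9 lower against Gold and 4 and 6 against both in seed coat, 7 and 7, 6 and 9 and 4 and 7 in embryo, and 13 and 14 between the cultivars. Tested members within 250 were 11 in seed coat and 10 in embryo, and within 500 they were 23 and 21.

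Replicate numbers did not pair the libraries, since deviations of same-numbered libraries correlated at -0.043 to 0.051. With the replicate number as a block, LcLTP3b in seed coat was at 4.74 and 4.80, 7 members were higher and 15 lower than both cultivars there, and only 4g014420 in embryo against Gold changed sign (-0.016). Without the shallowest library (Gold embryo replicate 3, 3270275 counts), LcLTP3b in embryo against Gold was at -0.18.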

Other observations

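Some members that the rule for named genes left out showed large changes. All were picked after their values were seen. The gene 4g012750, 85 steps before LcLTP3b, was lower in M11 embryo, with 6, 4 and 11 counts in M11, 18, 25 and 24 in Redmoon and 39, 55 and 8 in Gold (log2 fold changes -2.39 and -3.84, edgeR adjusted p = 3.35e-06 and 1.45e-10). In seed coat it had 16, 9 and 6 counts in M11, against 1, 1 and 2 in Redmoon and 38, 21 and 28 in Gold, whose libraries were deeper. In normalised CPM these were 1.82, 0.959 and 0.609 in M11, 0.0706, 0.0982 and 0.131 in Redmoon and 1.2, 0.734 and 0.85 in Gold. M11 was thus higher than Redmoon there (log2 fold change 3.37, edgeR adjusted p = 5.91e-06) and was not called against Gold (0.29, adjusted p = 0.465). The gene 4g013180, 42 steps before LcLTP3b, was lower in M11 seed coat, with 1.6, 1.17 and 0.406 normalised CPM in M11, 4.8, 4.71 and 5.29 in Redmoon and 8.73, 8.7 and 10.4 in Gold (-2.26 and -3.11, adjusted p = 3.72e-11 and 1.36e-19).

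Other members set 1 cultivar apart. The gene 4g014040, 44 steps after LcLTP3b, had 0 counts in every M11 seed coat library, 20, 13 and 25 in Redmoon seed coat and 1, 0 and 0 in Gold seed coat, while all 9 embryo libraries expressed it, at 8.43, 6.99 and 8.88 normalised CPM in M11, 11.4, 11 and 11 in Redmoon and 23.5, 33.4 and 23.6 in Gold. The gene 4g013880 had 5.12, 4.69 and 4.77 normalised CPM in M11 embryo, 0.568, 0.145 and 0.352 in Redmoon embryo and 6.86, 6.88 and 8.71 in Gold embryo, so that Redmoon alone was low (log2 fold change of M11 over Redmoon 3.73, edgeR adjusted p = 2.49e-11, and against Gold -0.57, adjusted p = 0.0048).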
